A study of Schmidtea mediterranea with 24 samples.

Results

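Planarian *hox3b* belongs to the Hox family, homeodomain transcription factors that give cells their position along the head to tail axis. *Schmidtea mediterranea* is a free-living flatworm whose asexual strain multiplies by tearing off its tail, a process called transverse fission, and its adults keep patterning genes active throughout life. RNA interference (RNAi), in which animals are fed double-stranded RNA (dsRNA), lowers the matching transcript. The comparison described here sets the 4 libraries of *hox3b* RNAi animals (labelled CPAR97) against the 4 libraries of control RNAi animals (labelled CPAR0) fed dsRNA of *unc-22*, 8 of the 24 libraries of the series. It asks which transcripts change in the whole animal when *hox3b* is silenced.

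All animals were asexual CIW4 adults, a clonal line, that received 7 feedings of purified dsRNA and were then starved for 5 days. Each library held RNA from 3 whole animals, so a library is a pool and the p-values below measure the spread between pools. In whole animals, fewer cells of a type and less RNA per cell cannot be told apart. The other 16 libraries came from *hox3a*, *hox1*, *lox5b* and *post2b* RNAi animals, 4 in each group, and were used for the spread of the model and for 2 direct comparisons.

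The region of *hox3b* chosen for dsRNA is defined by the primers that amplified it, shown because they say which transcript was silenced. The primers for *ca7* and *tdg* are shown because these are the genes that the study assigned to *hox3b* as effectors, that is, as genes through which a Hox gene may act. All are given 5′ to 3′ without the cloning overhang.

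hox3b forward: tagtccacacatcatgagaaaga

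hox3b reverse: taggaaataaatgccggattgtc

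ca7 forward: tctctagatgggaagcattatcc

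ca7 reverse: gattggtctgaaattgttctcca

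tdg forward: gaagtgaaaaaggatgtgagtga

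tdg reverse: actcactgactttcaactgattg

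The *hox3b* transcript is not paired with a gene ID in the tables used here, so the loss of *hox3b* itself was not analysed here. Of 13 Hox genes, 2 are paired with an ID. The posterior Hox gene *post2a* (SMESG000054107.1) had 9.20 ± 0.946 TPM in *hox3b* RNAi, against 9.84 ± 0.889 TPM in control RNAi (SD over 4 libraries a group), with overlapping libraries. *post1* (SMESG000003389.1), listed as Homeobox protein Hox-D12, had 0.708, 0.746, 0.875 and 0.305 TPM in *hox3b* RNAi, against 1.24, 1.11, 0.932 and 1.34 TPM in control RNAi. The groups did not overlap, but with 19 reads in all *hox3b* libraries against 33 in all control libraries the difference missed the threshold (log2 fold change -0.54, standard error 0.33, limma BH-adjusted p = 0.328).

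Values are TPM, transcript levels computed from read counts scaled for the length of the transcript, with a sum of 1000000 per library. TPM were also divided by a scale factor for each library, the median of ratios to a common reference, because a gain in some abundant transcripts lowers the TPM of all others. Both scales are given, as deposited and rescaled. Of 22197 genes in the table, 15330 had at least 0.5 TPM in at least 4 of the 8 libraries and were tested, and 14481 of these reached that level in all 8. A differentially expressed gene (DEG) had at least a 1.5-fold change on the log2(TPM + 0.5) scale, which understates the change of low transcripts, and an adjusted p under 0.05 (limma, adjusted by Benjamini-Hochberg, BH).

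The libraries were of like depth. Whole reads could be recovered from the TPM steps, and gave 9752665 to 12267250 reads in *hox3b* RNAi and 9793922 to 11467052 in control RNAi (exact permutation test, two-sided, p = 0.886). Pearson's r across genes was 0.9886 to 0.9934 within *hox3b* RNAi, 0.9911 to 0.9927 within control RNAi and 0.9821 to 0.9918 between the groups. The scale factor was 1.035, 1.054, 1.029 and 0.979 in *hox3b* replicates 1 to 4, against 1.098, 1.077, 1.049 and 1.058 in control replicates 1 to 4. Replicate 4 of *hox3b* lay lowest, and the groups overlapped by 1 library (means 1.02 and 1.07, exact permutation test, two-sided, p = 0.0571, where the smallest possible p is 0.0286). Genes above 0 TPM numbered 17225 to 17683 in *hox3b* RNAi and 17512 to 17843 in control RNAi (exact permutation test, two-sided, p = 0.0857).

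Among genes changed by at least 1.5-fold, more transcripts fell than rose in *hox3b* RNAi on both scales. As deposited, 213 of 15330 genes were DEGs (1.39% of genes tested), of which 40 rose (0.261%) and 173 fell (1.13%). After rescaling there were 187 DEGs (1.22%), of which 63 rose (0.411%) and 124 fell (0.809%). Falls were thus 81.2% of the DEGs as deposited and 66.3% after rescaling, which moved the median log2 fold change of all genes by 0.06. On both scales 164 genes were called (1.07%), with 40 risen and 124 fallen. The recovered reads, tested with limma's voom, gave 317 DEGs on the deposited scale (2.07%), 60 risen (0.391%) and 257 fallen (1.68%), and 266 on the rescaled one (1.74%), 84 risen (0.548%) and 182 fallen (1.19%). At any size of change, 732 genes (4.77%) passed an adjusted p of 0.05 (limma) as deposited, of which 211 rose (1.38%) and 521 fell (3.4%). After rescaling 769 (5.02%) passed, and here more rose, 411 (2.68%), than fell, 358 (2.34%).

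**Figure D1:**
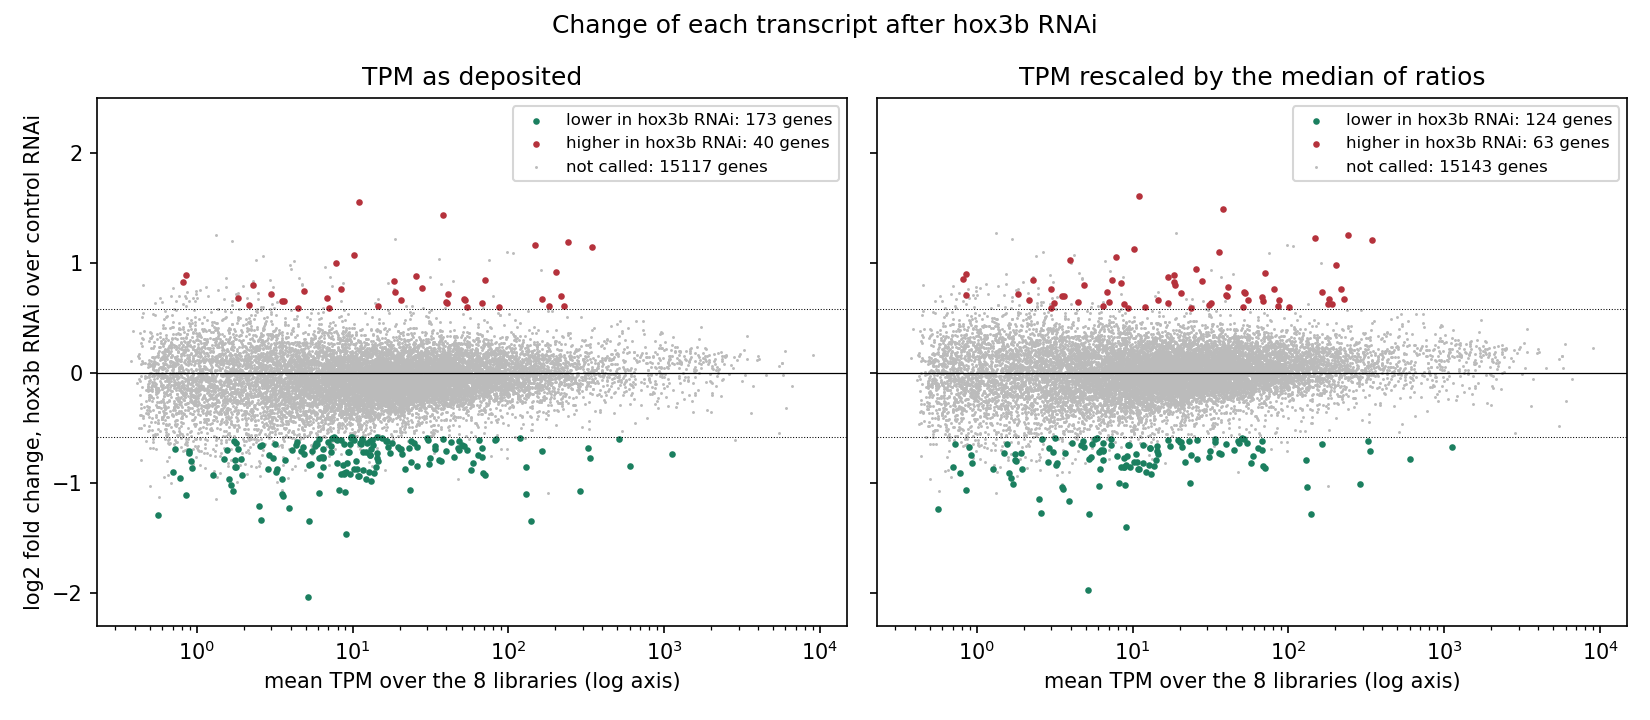
Log2 fold change of *hox3b* RNAi over control RNAi (vertical axis) against the mean TPM of the 8 libraries (horizontal log axis) for each of 15330 genes, as deposited (left) and rescaled (right). Dotted lines mark 1.5-fold, red points the 40 and 63 risen genes, and green points the 173 and 124 fallen genes.

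Most changes were modest. As deposited, 6 DEGs rose and 19 fell by at least 2-fold, and 1 fell by at least 4-fold. After rescaling the numbers were 9, 18 and 0 (limma, 3624 genes at an unadjusted p under 0.05). The risen genes were the more abundant, with a median level of 23.1 TPM over the 40 genes called on both scales, against 9.15 TPM over the 124 fallen genes and 16.3 TPM over all genes tested. No overlap between the groups was seen in 36 of these 40 risen genes and 121 of the 124 fallen ones, against 4.79% and 11.9% of all genes tested as deposited and 8.09% and 8.24% after rescaling, numbers that the choice of DEGs itself sets.

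The number of DEGs rested on single libraries. As deposited it dropped to 44 when *hox3b* replicate 4 was left out, and to 115 and 120 when *hox3b* replicate 1 or 3 was. It dropped to 82 when control replicate 4 was left out, and to 119 when control replicate 1 was. It was 386 without *hox3b* replicate 2. After rescaling, leaving out *hox3b* replicates 1 to 4 gave 101, 293, 104 and 48 DEGs, and leaving out control replicates 1 and 4 gave 121 and 80. Over the 124 fallen genes, the median difference from the control mean was -0.81, -0.48, -0.82 and -1.16 in *hox3b* replicates 1 to 4. These are log2 values as deposited, and the same libraries chose the genes, so the medians are a description. Over all genes tested the medians were -0.03, -0.02, -0.04 and -0.11. Replicate 4 was the lowest of the *hox3b* libraries for 90 of the 124 fallen genes, and replicate 2 the highest for 101. Over the 40 risen genes the medians were 0.75, 0.72, 0.66 and 0.82, a narrower range than over the fallen genes. Control replicate 4 was the lowest control library for 22 of the 40 risen genes. How often these libraries were lowest or highest over all genes tested was not analysed here.

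**Figure D2:**
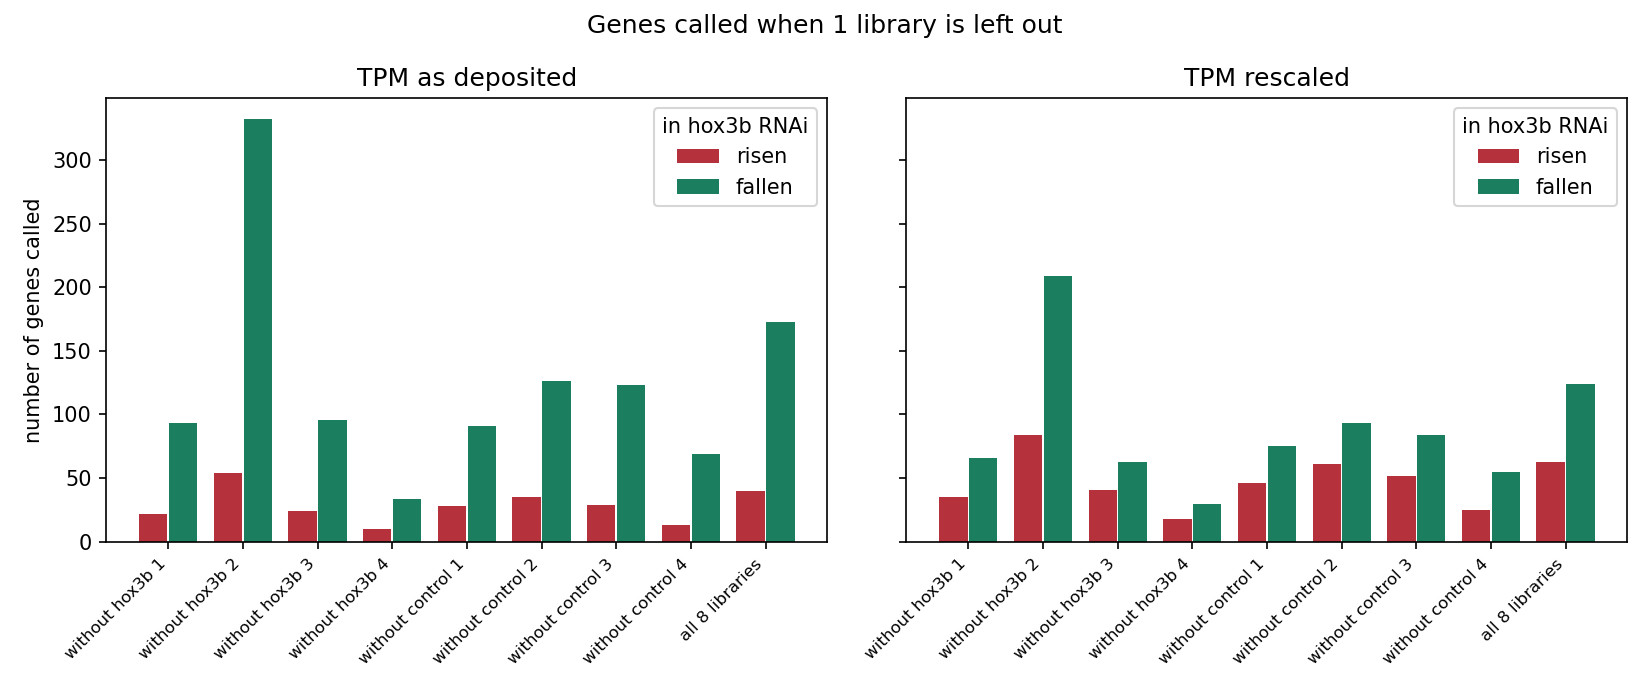
Number of genes called (vertical axis) when each of the 8 libraries is left out in turn and with all 8 libraries, as deposited (left) and rescaled (right). Red bars are genes risen and green bars genes fallen in *hox3b* RNAi, and the fallen genes number 34 without *hox3b* replicate 4 and 332 without *hox3b* replicate 2 as deposited.

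Leaving out any 1 library, on either scale, left 23 genes called in all 16 fits, 5 risen and 18 fallen. Among the 5 risen genes is the only one with a product name, Early growth response-3 (SMESG000000959.1), a zinc finger transcription factor of the family that responds early to signals in other animals. It had 27.6, 24.4, 19.3 and 23.4 TPM in *hox3b* RNAi, against 14.4, 13.6, 12.5 and 11.7 TPM in control RNAi. Every *hox3b* library lay above every control library. The log2 fold change was 0.83 (standard error 0.15, limma BH-adjusted p = 0.00504) and 0.89 after rescaling. The gene with the next ID, SMESG000000960.1, had 253, 211, 170 and 224 TPM in *hox3b* RNAi, against 167, 139, 150 and 123 TPM in control RNAi. Its log2 fold change of 0.56 stayed under the 1.5-fold threshold as deposited (limma BH-adjusted p = 0.033), while after rescaling it was called, at 0.62 (limma BH-adjusted p = 0.0275). It is named here after its values were seen. Whether the 2 genes overlap was not analysed here.

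The other 4 stable rises have no product name in the tables used here. SMESG000057720.1 had 93.5, 86.7, 88.2 and 96.0 TPM in *hox3b* RNAi, against 52.2, 52.8, 53.1 and 44 TPM in control RNAi, with a log2 fold change of 0.85. SMESG000016778.1 had 37.4, 34.0, 27.9 and 34.3 TPM in *hox3b* RNAi, against 20.3, 16.9, 14.3 and 20.3 TPM in control RNAi, with a log2 fold change of 0.88. In both genes every *hox3b* library lay above every control library. The means in *hox3a*, *hox1*, *lox5b* and *post2b* RNAi, in that order, were 110, 50.9, 57.3 and 57.3 TPM for SMESG000057720.1. For SMESG000016778.1 they were 27.0, 31.3, 76.6 and 37.9 TPM. SMESG000043428.1 averaged 64.2 ± 6.05 TPM in *hox3b* RNAi, against 40.5 ± 4.40 TPM in control RNAi, with a log2 fold change of 0.66. SMESG000055624.1 showed the largest rise among all DEGs. It had 13.1, 22.8, 17.7 and 12.9 TPM in *hox3b* RNAi, against 6.17, 4.73, 6.13 and 4.00 TPM in control RNAi (log2 fold change 1.55, standard error 0.33, limma BH-adjusted p = 0.0107). Its lowest *hox3b* library was above its highest control library, and the *hox3b* libraries differed among themselves by more than the control ones.

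The largest fall was that of SMESG000057502.1, which also held in every fit without 1 library. It had 2.06, 3.41, 1.65 and 0.492 TPM in *hox3b* RNAi, against 9.56, 5.81, 8.77 and 9.73 TPM in control RNAi. These values rest on 35 reads in the *hox3b* libraries and 149 reads in the control libraries. The log2 fold change was -2.04 (standard error 0.32, limma BH-adjusted p = 0.00147) and -1.97 after rescaling. *hox3b* replicate 2 lay nearest to the control libraries and replicate 4 farthest from them. The other Hox RNAi groups also lay below the control mean of 8.47 TPM. Their means were 2.45 TPM in *hox3a*, 3.85 TPM in *hox1*, 1.47 TPM in *lox5b* and 3.48 TPM in *post2b* RNAi.

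SMESG000041433.1 had 4.06, 7.22, 4.08 and 3.39 TPM in *hox3b* RNAi, against 14.5, 9.73, 13.3 and 16.6 TPM in control RNAi (log2 fold change -1.46, limma BH-adjusted p = 0.00112). The abundant SMESG000017804.1 had 169, 264, 164 and 159 TPM in *hox3b* RNAi, against 428, 368, 364 and 402 TPM in control RNAi (log2 fold change -1.08, limma BH-adjusted p = 0.00215). In both genes *hox3b* replicate 2 was the highest of its group, yet below every control library. Both also had means below control in *hox3a*, *hox1*, *lox5b* and *post2b* RNAi. In that order these were 4.47, 8.32, 4.32 and 5.36 TPM for SMESG000041433.1, and 210, 318, 128 and 242 TPM for SMESG000017804.1. SMESG000066417.1 averaged 48.6 ± 6.26 TPM in *hox3b* RNAi, against 93.2 ± 14.8 TPM in control RNAi, and SMESG000050730.1 averaged 47.1 ± 1.67 TPM in *hox3b* RNAi, against 79.8 ± 9.17 TPM in control RNAi (SD over 4 libraries a group). In these 2 genes replicate 2 did not stand out, with 42.6 TPM for SMESG000066417.1 and 46.4 TPM for SMESG000050730.1. SMESG000025870.1 had the lowest adjusted p of the stable falls, 0.000697 (log2 fold change -0.70, standard error 0.10), with 41.3 ± 5.51 TPM in *hox3b* RNAi, against 67.3 ± 3.75 TPM in control RNAi.

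**Figure D3:**
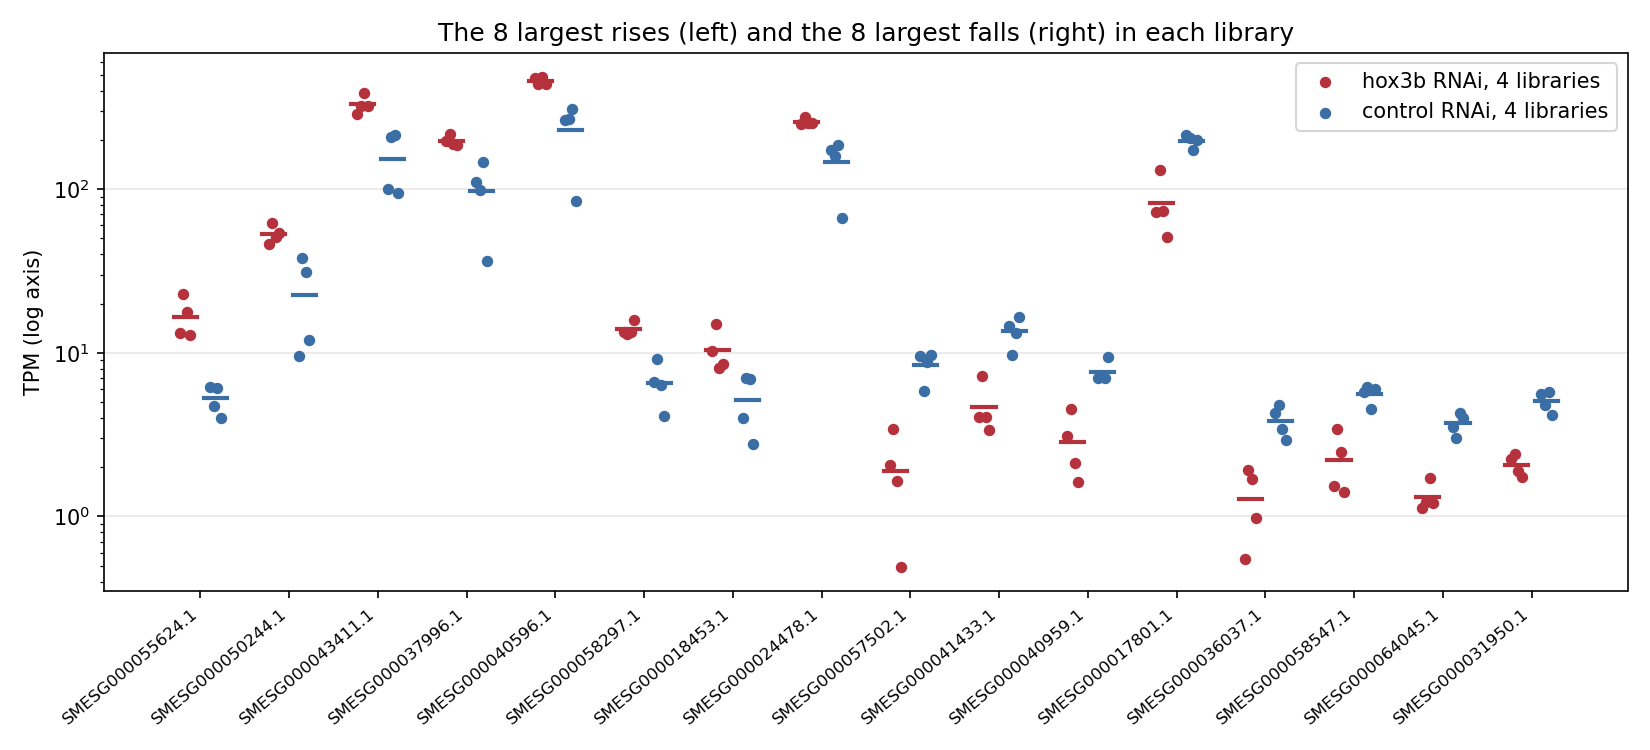
TPM (log axis) in each library of the 8 largest rises (left) and the 8 largest falls (right) among genes called on both scales at a mean of at least 1 TPM whose groups do not overlap. Red points are *hox3b* RNAi and blue points control RNAi, and bars are group means, which run up to 459 TPM in *hox3b* RNAi for SMESG000040596.1.

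The remaining large rises were less stable calls. SMESG000040596.1 had 476, 440, 481 and 441 TPM in *hox3b* RNAi, against 264, 268, 307 and 85.1 TPM in control RNAi (log2 fold change 1.14, limma BH-adjusted p = 0.0412). SMESG000037996.1 had 198, 216, 189 and 187 TPM in *hox3b* RNAi, against 110, 98.7, 147 and 36.3 TPM in control RNAi (log2 fold change 1.17). SMESG000024478.1 had 250, 276, 254 and 252 TPM in *hox3b* RNAi, against 174, 160, 185 and 66.6 TPM in control RNAi (log2 fold change 0.92). The *hox3b* libraries lay close together, whereas control replicate 4 lies far below the other 3 control libraries. Without control replicate 4 the log2 fold changes became 0.72, 0.75 and 0.58 (limma BH-adjusted p = 0.134, 0.146 and 0.13), and leaving out *hox3b* replicate 1, 3 or 4 or control replicate 1 also ended the 3 calls as deposited, as did leaving out control replicate 2 for SMESG000024478.1 and SMESG000037996.1 and *hox3b* replicate 2 for SMESG000037996.1 (limma BH-adjusted p from 0.0502 to 0.129). The 3 calls as deposited were also lost with no filter on low values and with no intensity trend (limma BH-adjusted p from 0.063 to 0.073).

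SMESG000043411.1 had 289, 322, 388 and 321 TPM in *hox3b* RNAi, against 99.5, 208, 213 and 94.6 TPM in control RNAi (log2 fold change 1.19, limma BH-adjusted p = 0.0343). SMESG000050244.1 had 45.9, 62.2, 51.3 and 53.6 TPM in *hox3b* RNAi, against 9.59, 38, 31.0 and 12 TPM in control RNAi (log2 fold change 1.43, limma BH-adjusted p = 0.0255). In both, control replicates 1 and 4 were low and 2 and 3 high, all below the *hox3b* libraries. Each call ended without *hox3b* replicate 3 or 4 or control replicate 1 or 4, and that of SMESG000043411.1 also without *hox3b* replicate 1, with limma BH-adjusted p from 0.0558 to 0.112. That of SMESG000043411.1 was lost too with no filter on low values or no intensity trend (limma BH-adjusted p = 0.0567 and 0.0554). SMESG000058297.1 averaged 13.9 ± 1.36 TPM in *hox3b* RNAi, against 6.56 ± 2.08 TPM in control RNAi, and SMESG000018453.1 averaged 10.5 ± 3.22 TPM in *hox3b* RNAi, against 5.16 ± 2.11 TPM in control RNAi (SD over 4 libraries a group). As deposited, both calls were lost without control replicate 4 (limma BH-adjusted p = 0.0713 for SMESG000058297.1 and 0.076 for SMESG000018453.1), the first also without *hox3b* replicate 4 (limma BH-adjusted p = 0.0779) and the other without control replicate 1 (limma BH-adjusted p = 0.0607).

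Among the other large falls, SMESG000017801.1 had 72.5, 131, 73.7 and 50.8 TPM in *hox3b* RNAi, against 213, 205, 173 and 199 TPM in control RNAi (log2 fold change -1.34). SMESG000040959.1 had 3.10, 4.54, 2.13 and 1.63 TPM in *hox3b* RNAi, against 6.96, 7.23, 6.98 and 9.41 TPM in control RNAi (log2 fold change -1.35). SMESG000031950.1 had 2.25, 2.40, 1.91 and 1.73 TPM in *hox3b* RNAi, against 5.64, 4.8, 5.74 and 4.19 TPM in control RNAi (log2 fold change -1.12). All 3 were lowest in *hox3b* replicate 4, and as deposited each call ended without that library alone (limma BH-adjusted p = 0.0582, 0.0508 and 0.0612). SMESG000064045.1, with 1.32 ± 0.276 TPM in *hox3b* RNAi, against 3.70 ± 0.558 TPM in control RNAi, also lost its call as deposited without *hox3b* replicate 4 (limma BH-adjusted p = 0.0602). After rescaling its call ended without *hox3b* replicate 1 or 4 or control replicate 3 or 4 (limma BH-adjusted p = 0.0544, 0.0653, 0.0503 and 0.0539). It rests on 19 reads in *hox3b* RNAi and 53 in control RNAi. SMESG000058547.1 (2.21 ± 0.948 TPM in *hox3b* RNAi, against 5.60 ± 0.733 TPM in control RNAi) lost its call without *hox3b* replicate 1 or 4 or control replicate 1, 2 or 4, with limma BH-adjusted p up to 0.11. SMESG000036037.1 (1.29 ± 0.634 TPM in *hox3b* RNAi, against 3.85 ± 0.845 TPM in control RNAi) lost its call as deposited without *hox3b* replicate 1 or 4 or any 1 control library, with limma BH-adjusted p up to 0.108, and with a pseudocount of 0.1 (limma BH-adjusted p = 0.0983), and after rescaling also without *hox3b* replicate 3 (limma BH-adjusted p = 0.0546).

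Among genes called on both scales whose groups did not overlap, the 3 largest losses in TPM were those of SMESG000066414.1, SMESG000002883.1 and SMESG000017804.1, none with a product name. SMESG000066414.1 had 884, 801, 822 and 833 TPM in *hox3b* RNAi, against 1409 ± 276 TPM in control RNAi with a lowest library of 1118 TPM (log2 fold change -0.73, limma BH-adjusted p = 0.00579). This call was kept as deposited without any 1 library, and after rescaling it was lost without *hox3b* replicate 4 (limma BH-adjusted p = 0.0509) or without control replicate 4 (log2 fold change -0.56, limma BH-adjusted p = 0.0633). SMESG000002883.1 had 437, 595, 394 and 320 TPM in *hox3b* RNAi, against 844, 724, 691 and 822 TPM in control RNAi (log2 fold change -0.85, limma BH-adjusted p = 0.0163). It was lowest in *hox3b* replicate 4, and its call as deposited ended without that library, or without control replicate 1 or 4 (limma BH-adjusted p = 0.0882, 0.0503 and 0.0533). After rescaling it ended without *hox3b* replicate 3 or 4 or control replicate 4 (limma BH-adjusted p = 0.0504, 0.0811 and 0.0502).

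Product names or abbreviations, as given by the study, were available for 517 of the genes tested (3.37%). Of these, 1 rose and 4 fell on both scales, where 0.261% of all genes rose and 0.809% fell. Protein disulfide-isomerase (SMESG000001159.1), which forms disulfide bonds in proteins folding in the endoplasmic reticulum, had 13.4, 20.3, 13.7 and 13.9 TPM in *hox3b* RNAi, against 27.8, 24.3, 26.6 and 34.6 TPM in control RNAi. *hox3b* replicate 2 lay well above the other 3 *hox3b* libraries, and the groups did not overlap. The log2 fold change was -0.87 (standard error 0.21), a call that ended without *hox3b* replicate 1, 3 or 4 or control replicate 4 (limma BH-adjusted p = 0.0574, 0.0557, 0.0761 and 0.0675). A Phospholipid-transporting ATPase (SMESG000003090.1), of the flippases that move lipids between the leaflets of a membrane, had 2.55, 2.57, 2.09 and 1.42 TPM in *hox3b* RNAi, against 4.46, 3.49, 3.54 and 4.51 TPM in control RNAi. The groups did not overlap, and the log2 fold change was -0.78 (standard error 0.19, limma BH-adjusted p = 0.0206). The call ended without *hox3b* replicate 3 or 4 or control replicate 1 or 4 (limma BH-adjusted p = 0.0517, 0.115, 0.0631 and 0.0675).

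Transmembrane channel-like protein 5 (SMESG000002416.1), of a family of membrane proteins that in mammals includes mechanotransduction channel subunits of hair cells, had 2.30, 3.47, 1.88 and 1.90 TPM in *hox3b* RNAi, against 4.87, 3.86, 4.01 and 3.12 TPM in control RNAi. The groups overlapped, since *hox3b* replicate 2 was above control replicate 4. Its log2 fold change was -0.65 (standard error 0.18, limma BH-adjusted p = 0.036), and the call was lost in 6 of 8 fits without 1 library, those that kept it being without *hox3b* replicate 2 and without control replicate 4 (limma BH-adjusted p up to 0.152). It was also lost with a pseudocount of 1, where the log2 fold change was -0.56, with no filter on low values and in a model of the 8 libraries alone (limma BH-adjusted p = 0.0311, 0.0519 and 0.0541). Tubulin polymerization promoting protein (SMESG000002261.1), a microtubule-bundling protein in other animals, had 240, 224, 212 and 225 TPM in *hox3b* RNAi, against 178, 176, 151 and 113 TPM in control RNAi. All *hox3b* libraries were higher than all control ones. It rose by a log2 fold change of 0.56 as deposited, just under the 1.5-fold threshold, and by 0.63 after rescaling, above it (limma BH-adjusted p = 0.00777 and 0.0063), and without control replicate 4 the rescaled value was 0.49.

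**Figure D4:**
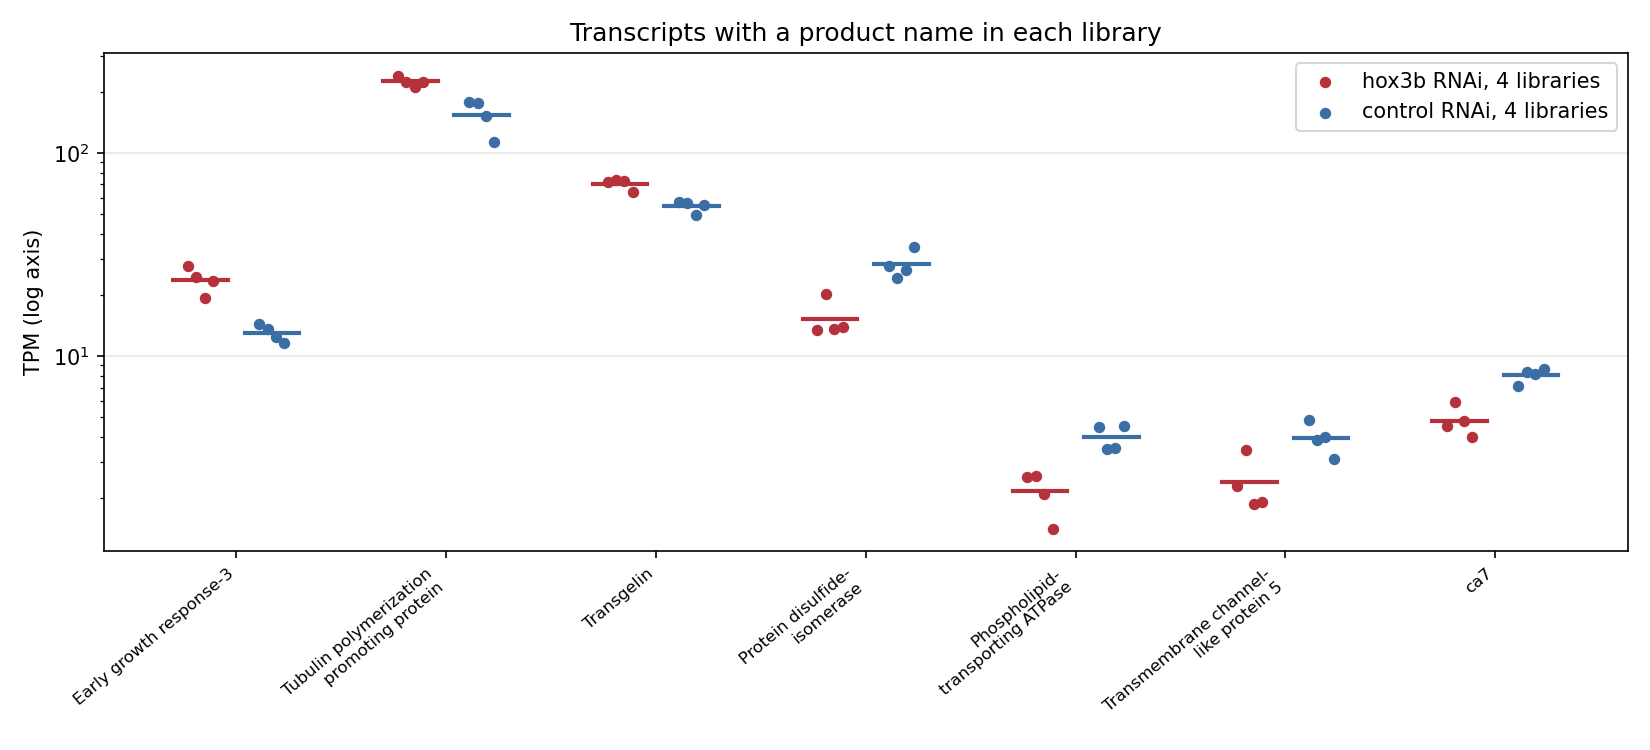
TPM (log axis) in each library for 7 transcripts with a product name, with *hox3b* RNAi in red left of control RNAi in blue and bars at the means. The groups are apart for each transcript except Transmembrane channel-like protein 5, and Early growth response-3 has 19.3 TPM or more in every *hox3b* library and at most 14.4 TPM in any control library.

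The study assigned 2 effectors to *hox3b*. Carbonic anhydrase VII, *ca7* (SMESG000017171.1), an enzyme that interconverts carbon dioxide and bicarbonate and was assigned to both *hox3* genes, had 4.52, 5.96, 4.79 and 4.01 TPM in *hox3b* RNAi, against 7.12, 8.32, 8.17 and 8.68 TPM in control RNAi. The groups did not overlap, with 148 reads in *hox3b* RNAi and 244 reads in control RNAi. It fell (log2 fold change -0.70, standard error 0.18, limma BH-adjusted p = 0.0316). As deposited this call held in 1 of 8 fits without 1 library, that without *hox3b* replicate 2, and the others gave limma BH-adjusted p from 0.0502 to 0.136, with log2 fold changes of -0.75 to -0.62. After rescaling it was also lost with no filter on low values (limma BH-adjusted p = 0.054).

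The other effector, *tdg* (SMESG000013320.1), whose name is that of a thymine DNA glycosylase, an enzyme of DNA repair, was too low to be tested. It had 0.287, 0.403, 0.177 and 0.124 TPM in *hox3b* RNAi, against 0.838, 0.393, 0.693 and 0.706 TPM in control RNAi. These are 5, 8, 3 and 2 reads in *hox3b* RNAi, against 15, 7, 11 and 13 reads in control RNAi. The *hox3b* libraries were lower except that replicate 2 lay just above control replicate 2 (exact permutation test, two-sided, p = 0.0571). With no filter on low values, *tdg* had a log2 fold change of -0.63 as deposited and -0.59 after rescaling (limma BH-adjusted p = 0.0412 and 0.0486). Both effectors had been picked by the study from these libraries, so their values are no independent evidence of the direction.

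Of the 24 effectors of the 5 Hox genes, 23 were tested here, and *ca7* was the only one with an adjusted p under 0.05, against 4.77% of all genes tested. The other 22 had log2 fold changes from -0.55 to 0.13, with the lowest adjusted p at 0.0863. Those assigned to *hox3a* alone were *gfm2*, *dd25334* and *ctbp2*. *gfm2* (SMESG000000046.1), a mitochondrial elongation factor, had 2.93 ± 0.737 TPM in *hox3b* RNAi, against 3.56 ± 0.691 TPM in control RNAi, and *dd25334* (SMESG000022810.1) had 1.52 ± 0.411 TPM in *hox3b* RNAi, against 1.87 ± 0.206 TPM in control RNAi. *ctbp2* (SMESG000031097.1), a transcriptional corepressor, had 0.792 ± 0.0671 TPM in *hox3b* RNAi, against 1.05 ± 0.194 TPM in control RNAi (SD over 4 libraries a group). All 3 overlapped with control.

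Lists of genes by product name gave few changes. The 16 transcription factors tested held 1 risen DEG on each scale, Early growth response-3, and no fallen one, where 0.261% of all genes rose as deposited and 0.411% after rescaling. The 18 ion channels held 1 fallen DEG on each scale, Transmembrane channel-like protein 5, where 1.13% of all genes fell as deposited and 0.809% after rescaling. At any size 2 ion channels rose after rescaling only, where 2.68% of all genes rose. These were Potassium voltage-gated channel subfamily H member 7 (SMESG000000377.1), with 9.14 TPM in *hox3b* RNAi, against 7.05 TPM in control RNAi (rescaled log2 fold change 0.41, limma BH-adjusted p = 0.0199), and Ryanodine receptor related (SMESG000000645.1), with 98.1 TPM in *hox3b* RNAi, against 87.8 TPM in control RNAi (rescaled log2 fold change 0.22, limma BH-adjusted p = 0.0397). Another entry named Ryanodine receptor related, SMESG000000646.1, had 9.35 TPM in *hox3b* RNAi, against 11.3 TPM in control RNAi (rescaled log2 fold change -0.245, limma BH-adjusted p = 0.535). Both entries also count in the list of muscle contraction and structure below. The list of 14 axial patterning signals held genes of the Wnt, Hedgehog, BMP and Slit pathways, which place head, tail, back and midline. It also held Presenilin, Notchless-1 and a netrin receptor. None of the 14 passed an adjusted p of 0.05 on either scale, and their median log2 fold change was 0.002, against -0.05 for all genes tested. At an unadjusted p under 0.05 (limma), 3794 of all 15330 genes tested passed as deposited and 3624 after rescaling. Of the 14 signals, 2 did as deposited and 1 after rescaling, and voom called 0. Among them beta-catenin (SMESG000002541.1), the effector of Wnt signalling, had 36.7 TPM in *hox3b* RNAi, against 39.2 TPM in control RNAi. The Hedgehog protein (SMESG000002733.1) had 0.830 TPM in *hox3b* RNAi, against 0.433 TPM in control RNAi, and a Wnt ligand (SMESG000002069.1) had 7.51 TPM in *hox3b* RNAi, against 7.09 TPM in control RNAi.

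The 14 genes of the secretory pathway held 1 fallen DEG, Protein disulfide-isomerase, where 1.13% of all genes fell as deposited and 0.809% after rescaling. At any size of change 3 fell as deposited and 2 after rescaling, where 3.4% and 2.34% of all genes fell, and none rose. The median log2 fold change of the list was -0.10. Golgi SNAP receptor complex member 1 (SMESG000003459.1), a vesicle fusion protein of the Golgi, had 24 ± 0.551 TPM in *hox3b* RNAi, against 30.6 ± 2.76 TPM in control RNAi (log2 fold change -0.34, limma BH-adjusted p = 0.0139). Nucleobindin-1 (SMESG000000846.1), a calcium-binding protein of the Golgi, had 106 ± 9.03 TPM in *hox3b* RNAi, against 126 ± 8.55 TPM in control RNAi (log2 fold change -0.24, limma BH-adjusted p = 0.0402), and 0.0519 after rescaling.

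The 12 genes of muscle contraction and structure held no DEG, and their median log2 fold change was 0.12 as deposited and 0.18 after rescaling. At any size 1 rose as deposited and 5 rose after rescaling, where 1.38% and 2.68% of all genes rose. Transgelin (SMESG000000987.1), an actin-binding protein, had 71.9, 73.8, 73.1 and 64.0 TPM in *hox3b* RNAi, against 57.4, 56.5, 49.5 and 55.7 TPM in control RNAi. Its libraries did not overlap, and it rose (log2 fold change 0.37, standard error 0.07, limma BH-adjusted p = 0.00506), with a log2 fold change of 0.43 after rescaling. Troponin i (SMESG000002071.1) had 1230 to 1431 TPM in *hox3b* RNAi, against 1087 to 1209 TPM in control RNAi, and titin homolog (SMESG000002539.1) had 56.7 TPM in *hox3b* RNAi, against 46.9 TPM in control RNAi, both past the threshold only after rescaling (log2 fold change 0.26 and 0.33, limma BH-adjusted p = 0.0497 and 0.0272). The Myosin regulatory light chain (SMESG000000175.1) was level, with 963 TPM in *hox3b* RNAi, against 969 TPM in control RNAi. The 5 muscle markers summed to 3030 to 3290 TPM in *hox3b* RNAi, against 2810 to 2980 TPM in control RNAi, and their part in other changes was not tested.

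Of 10 cilium genes none passed an adjusted p of 0.05 as deposited (limma), and voom on the rescaled reads passed 2. An unadjusted p under 0.05 (limma) was seen in 5 of the 10 as deposited and 6 after rescaling. Over all 15330 genes tested the numbers were 3794 and 3624. The median log2 fold change of the 10 cilium genes was 0.20 as deposited and 0.27 after rescaling. After rescaling 2 rose, where 2.68% of all genes did, Dynein light chain (SMESG000003543.1) and Inner dynein arm light chain, axonemal (SMESG000001266.1), by log2 fold changes of 0.28 and 0.37 (limma BH-adjusted p = 0.041 and 0.0497). Among the other marker lists, the 8 neuronal markers summed to 74.9 to 91.7 TPM in *hox3b* RNAi, against 74.4 to 89.9 TPM in control RNAi. The 4 markers of dividing cells summed to 52.6 to 59.8 TPM in *hox3b* RNAi, against 56.2 to 66.0 TPM in control RNAi. The 6 genes of the marginal adhesive gland and lateral edge summed to 1480 to 1620 TPM in *hox3b* RNAi, against 1610 to 1840 TPM in control RNAi. None of these 18 genes passed an adjusted p of 0.05 on either scale (limma), and voom on the rescaled reads passed 1 neuronal marker. At an unadjusted p under 0.05 (limma) the lists held 3, 1 and 1 genes, beside 3794 of all 15330 genes tested as deposited. In the 18 translation genes 1 rose at any size on each scale, where 1.38% of all genes rose as deposited and 2.68% after rescaling, 40S ribosomal protein S20 (SMESG000002673.1), with 1686 ± 49.6 TPM in *hox3b* RNAi, against 1488 ± 5.35 TPM in control RNAi (log2 fold change 0.18, limma BH-adjusted p = 0.0425). The lists of receptors, adhesion and matrix, proteases, mitochondrial metabolism, TNF receptor-associated factors, transposable elements, stress and redox, and cell division held no gene past an adjusted p of 0.05 on either scale (limma). Each had 0 to 4 members at an unadjusted p under 0.05 as deposited (limma), where 3794 of all 15330 genes tested had one. By voom on the rescaled reads, 0 or 1 of each passed an adjusted p of 0.05.

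Against *hox3a* RNAi, the paralog, *hox3b* RNAi differed in 73 genes as deposited (0.476% of genes tested), with 29 higher (0.189%) and 44 lower (0.287%) in *hox3b* RNAi, and in 69 genes after rescaling (0.45%), with 12 higher (0.0783%) and 57 lower (0.372%). On both scales 12 genes were higher and 44 lower. Of the 44, 15 had means over 1000 TPM in *hox3a* RNAi. These include genes with near IDs, from SMESG000035323.1 to SMESG000035335.1 and from SMESG000028260.1 to SMESG000028264.1. The 44 were chosen for a higher level in *hox3a* RNAi, and the share of all genes tested above 1000 TPM was not analysed here. Of the 56 genes that differed on both scales, 8 were also DEGs against control RNAi as deposited, where 1.39% of all genes tested were. The *hox3b* libraries enter both comparisons, so this count is a description. Early growth response-3 (SMESG000000959.1) was higher in *hox3b* RNAi, at 23.7 ± 3.44 TPM, than in *hox3a* RNAi, at 12.8 ± 2.36 TPM (log2 difference 0.87, standard error 0.15, limma BH-adjusted p = 0.00365). Its log2 difference from the mean of the other 4 Hox RNAi groups, 0.45, stayed under the 1.5-fold threshold (limma BH-adjusted p = 0.0264). After rescaling that difference was 0.39 (limma BH-adjusted p = 0.0759). Of the genes higher in *hox3b* than in *hox3a* RNAi, SMESG000051996.1, named here after its values were seen, had the largest difference. It had 46.7 ± 10.6 TPM in *hox3b* RNAi and 9.85 ± 3.30 TPM in *hox3a* RNAi (log2 difference 2.23, limma BH-adjusted p = 0.00035). Control RNAi had 32.0 ± 11.2 TPM, and the difference of *hox3b* from control missed the threshold (limma BH-adjusted p = 0.249). A G-protein coupled receptor (SMESG000001813.1) was higher by 0.66 as deposited (limma BH-adjusted p = 0.0433).

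Among the genes lower in *hox3b* than in *hox3a* RNAi, Vacuolar protein sorting-associated protein 4A, an ATPase that takes apart membrane-cutting complexes (SMESG000070711.1), had 4.16, 2.74, 3.42 and 4.03 TPM in *hox3b* RNAi, and 13.3 ± 4.90 TPM in *hox3a* RNAi (log2 difference -1.70, standard error 0.24, limma BH-adjusted p = 0.00035). Control RNAi had 6.05 ± 0.951 TPM, and the difference of *hox3b* from control missed the threshold (limma BH-adjusted p = 0.0863). The small GTPase ADP-ribosylation factor 1, which starts the budding of vesicles (SMESG000052762.1) and is named here after its values were seen, had 1.35 ± 0.232 TPM in *hox3b* RNAi and 5.33 ± 1.26 TPM in *hox3a* RNAi (log2 difference -1.64, limma BH-adjusted p = 0.00226). It had 1.76 ± 0.619 TPM in control RNAi, without a difference of *hox3b* from control past the threshold (limma BH-adjusted p = 0.594). SMESG000057626.1, named here after its values were seen, had 22.3 ± 2.82 TPM in *hox3b* RNAi and 122 ± 43.6 TPM in *hox3a* RNAi (log2 difference -2.38), beside 21.4 ± 4.57 TPM in control RNAi. Alpha-tocopherol transfer protein-like (SMESG000009874.1), of the carriers of vitamin E, was lower by a log2 difference of -0.79 (limma BH-adjusted p = 0.0239). It had 3.69 TPM in *hox3b* RNAi, 6.80 TPM in *hox3a* RNAi and 3.19 TPM in control RNAi.

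Against the mean of the other 4 Hox RNAi groups, *hox3b* RNAi differed in 181 genes as deposited (1.18%), 164 higher (1.07%) and 17 lower (0.111%), and in 119 genes after rescaling (0.776%), 95 higher (0.62%) and 24 lower (0.157%). As deposited the number was 85, 46, 93 and 305 without *hox3b* replicates 1, 2, 3 and 4. Of the 40 genes risen against control on both scales, 13 were higher in *hox3b* RNAi than in the mean of the other 4 groups as deposited and 11 on both scales. Of the 124 fallen genes, none was lower and 1 was higher. The *hox3b* libraries enter both comparisons, so these counts are a description.

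The 11 transcripts include the 8 largest rises. Among the 11, only SMESG000018453.1, SMESG000030037.1 and SMESG000054112.1 had a higher mean in *hox3b* than in *hox3a* RNAi. In *hox3a* RNAi the mean was 320 TPM for SMESG000024478.1 and 372 TPM for SMESG000037996.1, against 258 and 197 TPM in *hox3b* RNAi. A higher mean in *hox3a* than in *hox3b* RNAi was seen in 17 of the 40 genes risen against control on both scales. SMESG000018453.1 had 10.5 ± 3.22 TPM in *hox3b* RNAi, beside means of 7.85 TPM in *hox3a*, 3.17 TPM in *hox1*, 1.64 TPM in *lox5b*, 2.05 TPM in *post2b* and 5.16 TPM in control RNAi (log2 difference from the mean of the other 4 groups 1.58, standard error 0.19, limma BH-adjusted p = 4.01e-05). SMESG000050244.1 had 53.3 ± 6.77 TPM in *hox3b* RNAi, beside 197 ± 69.5 TPM in *hox3a* RNAi and means of 8.24 TPM in *hox1*, 4.06 TPM in *lox5b*, 5.98 TPM in *post2b* and 22.7 TPM in control RNAi. In that gene *hox3b* RNAi was above the mean of the other 4 groups by 1.90 and below *hox3a* RNAi alone by a log2 difference of -1.83 (limma BH-adjusted p = 0.000425 and 0.00956). SMESG000055624.1 had 16.6 ± 4.68 TPM in *hox3b* RNAi and 93.8 ± 63.3 TPM in *hox3a* RNAi (log2 difference -2.3, limma BH-adjusted p = 0.000366), and SMESG000043411.1 had 330 ± 41.5 TPM in *hox3b* RNAi and 1337 ± 546 TPM in *hox3a* RNAi (log2 difference -1.94, limma BH-adjusted p = 0.00222). The *hox3a* libraries spread widely in these genes. SMESG000030037.1 and SMESG000054112.1 had their highest group mean in *hox3b* RNAi, with 17.5 TPM for SMESG000030037.1 and 10.5 TPM for SMESG000054112.1, where *hox3a* RNAi had 11.8 TPM and 6.19 TPM. Neither difference from *hox3a* RNAi passed the threshold as deposited (limma BH-adjusted p = 0.102 for SMESG000030037.1 and 0.0762 for SMESG000054112.1). Their control means were 11.5 TPM and 6.35 TPM, and as deposited each call against control held in 2 of 8 fits without 1 library. The limma BH-adjusted p there reached 0.142 for SMESG000030037.1 and 0.116 for SMESG000054112.1. SMESG000054112.1 overlapped with control as deposited (lowest *hox3b* library 9.51 TPM, highest control library 9.73 TPM).

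**Figure D5:**
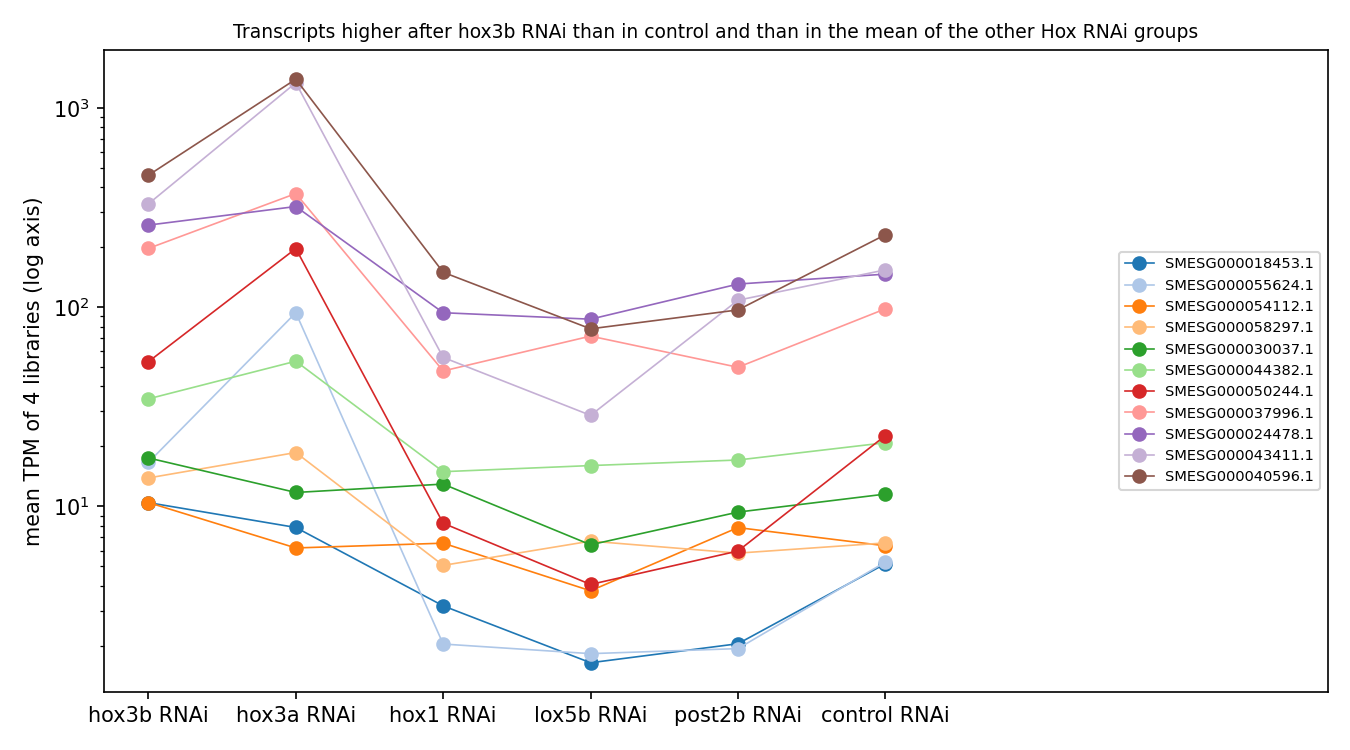
Mean TPM of 4 libraries (log axis) in each of the 6 RNAi groups for the 11 transcripts higher in *hox3b* RNAi than in control RNAi and than in the mean of the other 4 Hox RNAi groups on both scales, 1 colour for each. SMESG000040596.1 and SMESG000043411.1 reach 1394 TPM and 1337 TPM in *hox3a* RNAi, beside 459 TPM and 330 TPM in *hox3b* RNAi.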

How the data were processed

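RNA of whole asexual adults was made into stranded mRNA libraries and read as single reads. The authors demultiplexed with bcl2fastq2 2.20, aligned with STAR to smed_dd_g4 and counted over the Smes_hv_v1 gene models. The TPM deposited by the authors were used as log2(TPM + 0.5), also divided by median-of-ratios factors of the 24 libraries. Tests used limma 3.58.1 in R 4.3.3, with all 24 libraries, 1 term for the RNAi group, an intensity trend, two-sided p-values and Benjamini-Hochberg adjustment over 15330 genes. A DEG had at least 1.5-fold change and adjusted p under 0.05. For all 20190 genes above 0 TPM the values came out as whole reads within 0.001 reads (a factor shared by all of a gene's reads cannot be seen), giving 7254072 to 12267250 reads in the 24 libraries. The steps were tested on simulated data.

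Named genes were DEGs with a product name, the effectors, Hox genes with an ID, the 8 largest rises and falls and 3 largest TPM differences each way among non-overlapping genes called on both scales at a mean of at least 1 TPM, up to 3 members a list past adjusted p of 0.05 as deposited, and 4 named genes that differ from *hox3a* RNAi. List members were also quoted beside their counts. Members and lists were chosen with earlier results of these data known. Product names and effectors came from the study's supplementary tables. The alternatives took a pseudocount of 0.1 or 1, left out the filter, required a mean TPM of at least 2, and used no trend, only the 8 libraries, the replicate number as block, an adjusted p cutoff of 0.5, no fold cutoff, other scale factors, leaving out each library, and voom on recovered reads, which was chosen after seeing the data.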

Additional observations from a re-analysis of the deposited data

Results flagged for a closer look

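Among 112 sets of 4 values checked, 8 had 1 library far from the other 3; the ratio given is the gap to the nearest library over the group's range. Chance gives about 1 in 20. In *hox3b* replicate 2, Protein disulfide-isomerase (SMESG000001159.1) had 20.3 TPM against 13.4 to 13.9 TPM in the other *hox3b* libraries (ratio 0.928), SMESG000017804.1 had 264 TPM against 159 to 169 TPM (0.905) and SMESG000024478.1 had 276 TPM against 250 to 254 TPM (0.841). In *hox3b* replicate 3, *rcn-1* (SMESG000034805.1) had 1050 TPM against 906 to 924 TPM (0.878) and *eve* (SMESG000015136.1) had 4.02 TPM against 3.19 to 3.32 TPM (0.84). SMESG000058297.1 had 15.9 TPM in *hox3b* replicate 4 against 13 to 13.4 TPM (0.87), and *post2a* (SMESG000054107.1) had 7.80 TPM in *hox3b* replicate 1 against 9.46 to 9.80 TPM (0.833). In control replicate 4, SMESG000040959.1 had 9.41 TPM against 6.96 to 7.23 TPM in the other control libraries (0.89).

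The change in *hox3b* RNAi differed from that in *hox3a* RNAi, by the direct test between the 2 groups, in 12 of the genes named above, 4 of them (SMESG000000960.1, SMESG000051996.1, SMESG000052762.1 and SMESG000057626.1) named after their values were seen. The log2 difference was 2.23 for SMESG000051996.1, 0.74 for SMESG000000960.1, 0.87 for Early growth response-3 (SMESG000000959.1) and 0.66 for a G-protein coupled receptor (SMESG000001813.1). It was -2.38 for SMESG000057626.1, -1.64 for ADP-ribosylation factor 1 (SMESG000052762.1), -2.3 for SMESG000055624.1, -1.94 for SMESG000043411.1, -1.83 for SMESG000050244.1, -1.70 for the Vps4A transcript SMESG000070711.1, -1.56 for SMESG000040596.1 and -0.79 for Alpha-tocopherol transfer protein-like (SMESG000009874.1).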

How the results depend on the processing

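With 213 DEGs as deposited and 187 after rescaling, pseudocounts, filters, trend, the model of 8 libraries and other scale factors gave 150 to 300. An adjusted p cutoff of 0.5 gave 495 and 422, and no fold cutoff 732 and 769. Leaving out 1 library gave 44 to 386 and 48 to 293. Voom on recovered reads gave 317 on the deposited scale and 266 on the rescaled one, and called 161 of the 164 genes called on both scales. The number of risen genes moved from 40 to 63 with rescaling. Against *hox3a* RNAi, 73 genes became 38 to 77 without 1 *hox3b* library. Against the mean of the other 4 groups, 181 genes became 119 after rescaling and 46 to 305 without 1 *hox3b* library. The cause of these shifts was not tested.

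With the replicate number as a block the counts were 211 and 182 against control, 75 against *hox3a* RNAi and 164 against the other 4 groups, and as deposited SMESG000024478.1, SMESG000037996.1 and SMESG000040596.1 were not called (limma adjusted p = 0.0521, 0.0573 and 0.0547). Equal numbers did not pair the samples (correlations of deviations -0.0237, -0.0928, -0.00487 and -0.0142), and no *hox3b* library correlated best with the control library of its own number. Of the fold changes of single named genes under an alternative, 1948 kept their side of the threshold, 174 lost it and 17 gained it, and none reversed as a call. Fewer than 20 reads over the 4 *hox3b* libraries limit *post1*, *tdg* and SMESG000064045.1.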
